A study of Mus musculus with 8 samples.

Results

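Galectins and annexins were followed in lymph node cells before and after immunization through 10 member genes, the galectins Lgals1, Lgals3 and Lgals9 and the annexins Anxa1, Anxa2, Anxa4, Anxa5, Anxa6, Anxa7 and Anxa11. Their probe sets, the groups of oligonucleotides that report on 1 transcript, were those that the array annotation maps to these symbols. In all, 17 probe sets with 1 symbol covered 9 of the 10 genes, among 22626 probe sets that are not controls and 12393 genes with such a probe set. The only probe set annotated to Anxa11 also carries the symbols Gm2274 and Gm2260, so no value is given for Anxa11. Of the 17 probe sets, 14 passed a filter that kept a probe set whose ratio reached 1 on 2 or more arrays, as did 13042 probe sets over the whole array. The 3 that did not pass belong to Anxa2 (1437691_at and 1437692_x_at) and Anxa7 (1416137_at).

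The study sorted lymph node cells of B10.BR mice, an inbred strain, by flow cytometry and hybridised their RNA to Affymetrix mouse arrays. The groups were naive mice (3 arrays), mice 7 days after immunization (3 arrays) and mice 28 days after immunization (2 arrays), with no transgene, deletion or other treatment named for any group. The immunogen, the sorted population and the age of the mice are not named in the labels, which also do not say whether replicates were separate animals, so the spread given here may be technical. Values are log2 of the deposited ratio, in which each probe set appears to be divided by its own 8-array median, or by a floor shared by dim probe sets. A value of 0 marks that median or floor, so a value says nothing of one gene's level against another's. The rule for the members refers to these log2 ratios, and the genes were chosen with results from these same comparisons known, so their differences and calls are a description and not a test. A probe set is said to be called, or to have risen or fallen, where its adjusted p was under 0.05 in a limma fit over all 13042 kept probe sets.

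Galectins are lectins that bind beta-galactosides on glycoproteins at the cell surface and inside the cell. In lymphocytes they are known for tuning T cell receptor clustering, adhesion and survival. Annexins bind acidic phospholipids in a calcium-dependent way and take part in membrane repair, vesicle traffic and, for annexin A1, the damping of inflammation. Lgals1 encodes galectin-1, which has a single carbohydrate-binding domain and acts as a dimer, Lgals3 encodes galectin-3, which has a long amino-terminal tail that lets it oligomerise, and Lgals9 encodes galectin-9, which carries a pair of carbohydrate-binding domains in tandem.

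The promoters below belong to 2 member genes called higher at day 7 (Lgals3 and Anxa2) and to the galectin whose groups overlapped in every comparison (Lgals9), and are shown so that their sequence can be set beside these patterns. Each runs from 250 bases before to 50 bases after the RefSeq start site, 5′ to 3′ on the gene's strand, in build GRCm38.p6. Lgals3 lies at chr14:47373610-47373909 (plus strand), Anxa2 at chr9:69453433-69453732 (plus strand) and Lgals9 at chr11:78984875-78985174 (minus strand). Capitals mark matches on either strand to 4 motifs, which are TATAAA for the TATA box, CCAAT for the CCAAT box, GGGCGG for the GC box and TGANTCA for the AP-1 motif.
Lgals3: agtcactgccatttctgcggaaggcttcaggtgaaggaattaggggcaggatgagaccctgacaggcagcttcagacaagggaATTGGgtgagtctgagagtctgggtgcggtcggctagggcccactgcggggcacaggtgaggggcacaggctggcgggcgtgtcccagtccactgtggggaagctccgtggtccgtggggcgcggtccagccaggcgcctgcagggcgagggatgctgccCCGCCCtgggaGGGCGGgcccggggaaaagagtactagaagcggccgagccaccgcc
Anxa2: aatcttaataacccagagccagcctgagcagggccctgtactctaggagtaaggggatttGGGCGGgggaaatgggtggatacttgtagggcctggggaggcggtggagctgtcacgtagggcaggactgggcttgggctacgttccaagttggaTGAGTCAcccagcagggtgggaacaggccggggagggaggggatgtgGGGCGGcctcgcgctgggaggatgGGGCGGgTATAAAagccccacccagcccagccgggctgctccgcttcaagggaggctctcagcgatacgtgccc
Lgals9: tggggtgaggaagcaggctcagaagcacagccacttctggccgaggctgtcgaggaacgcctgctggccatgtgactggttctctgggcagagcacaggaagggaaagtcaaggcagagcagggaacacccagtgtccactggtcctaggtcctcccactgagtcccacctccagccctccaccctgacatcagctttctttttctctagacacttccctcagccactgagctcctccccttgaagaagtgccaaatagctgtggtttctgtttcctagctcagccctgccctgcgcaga
The Anxa2 promoter held a TATA box that began at base -17, an AP-1 motif at -95, which reads alike on both strands, and 3 GC boxes at -190, -48 and -24. The Lgals3 promoter held a GC box on the opposite strand at -7 and on the gene's strand at 5, and a CCAAT box on the opposite strand at -167. The Lgals9 window held none of the 4 motifs, and no match overlapped another motif's. Among all 32851 promoters of this length, 13.6% held the TATA box, 37.4% the CCAAT box, 35.7% the GC box and 7.81% the AP-1 motif. Promoters were in the table for 8 of the 10 members (10 promoters in all, missing for Lgals1 and Anxa6), of which 2 held the TATA box, 1 the CCAAT box, 6 the GC box and 1 the AP-1 motif. The promoters of Anxa7 overlap, and the GC box at -8 of one is the same site as that at -200 of the other. A match describes the letters only and says nothing of a factor's binding.

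The arrays did not sort by group alone. The median log2 ratio of the 18 hybridisation spike-in probe sets, which report bacterial and phage transcripts added to the samples, was -1.16 for naive replicate 1 and ran between -1.70 and -1.03 for day 7. It was 0.85 and 0.66 for the other two naive arrays, and 1.41 and 0.64 for day 28. Arrays below 0 form a low spike-in set and the rest a high set, and differences within a set stand beside some of the results. The 11 T cell markers had 9 measured members with a list median that ran from -0.12 to 0.80 among naive arrays, from -0.65 to 0.17 at day 7 and from -0.51 to 0.20 at day 28. The 11 B cell markers had 8 measured members, with a list median that ran from -0.56 to -0.09 among naive arrays, from -0.20 to 0.00 at day 7 and from 3.46 to 4.31 at day 28. Since the values are ratios, they do not show whether a marker was absent.

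**Figure D1:**
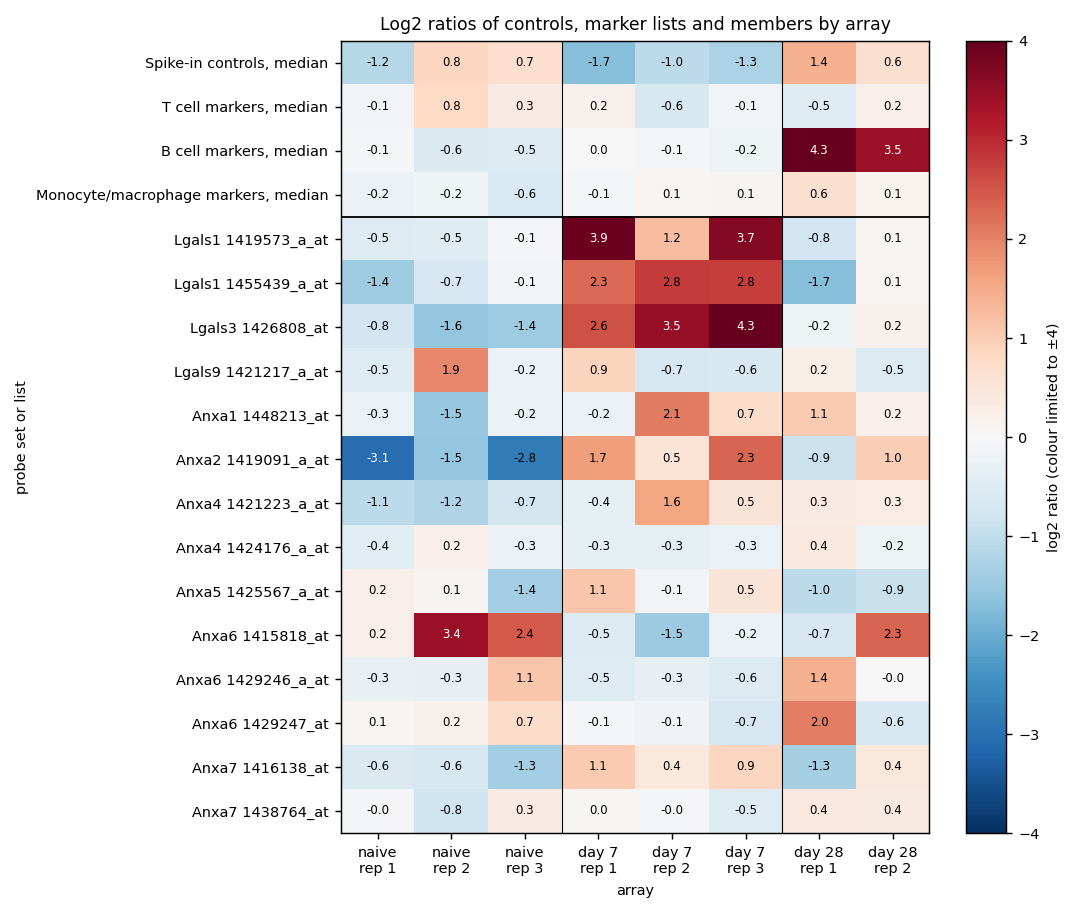
Log2 ratios on each of the 8 arrays (columns, by group and replicate) for the spike-in control median, the medians of 3 marker lists and the 14 kept member probe sets (rows). Colour and numbers give the log2 ratio. Both Lgals1 probe sets and Lgals3 are highest on the 3 day 7 arrays, and the B cell median is high on the 2 day 28 arrays.

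At day 7, the galectins Lgals1 and Lgals3 and the annexin Anxa2 rose, and no member fell. Of the 14 kept member probe sets, 3 were called higher and 0 lower, where 1.06% of all kept probe sets were called higher and 0.107% lower (1.17% in all). The median log2 difference, day 7 minus naive, was 1.19 over the member probe sets and 0.11 over all kept probe sets. Since the members were picked with this contrast in view, nothing is read from these counts. In bulk RNA, fewer cells of a type and less RNA per cell cannot be told apart.

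Lgals3 had log2 ratios of 2.56, 3.49 and 4.34 on the day 7 arrays, against -0.78, -1.56 and -1.42 on the naive arrays. Every day 7 array lay above every naive array, and the lowest day 7 value was more than 3 log2 units above the highest naive one. The 3 naive values lay within 1 log2 unit of each other. The log2 difference was 4.72 ± 0.48 (SE of the limma fit, 3 arrays each), a 26.3-fold difference in ratio. Leaving out 1 array at a time moved it between 4.28 and 5.17. Against naive replicate 1 alone, the only naive array with low spike-in signal, the difference was 4.24.

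Lgals1 was reported by 2 probe sets. The first, 1455439_a_at, had log2 ratios of 2.26, 2.79 and 2.75 at day 7, against -1.43, -0.68 and -0.10 on the naive arrays, a difference of 3.34 ± 0.54. The second, 1419573_a_at, had 3.94, 1.23 and 3.68 at day 7, against -0.52, -0.48 and -0.07, a difference of 3.31 ± 0.69. Both separated the groups completely, and their differences lay within 1 SE of each other. They did not order the day 7 arrays alike, since replicate 2 was the highest by the first probe set and the lowest by the second. Only the first was called. Within the low spike-in arrays the differences were 4.03 and 3.47.

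Anxa2 encodes annexin A2, which binds S100a10 to form a heterotetramer at the plasma membrane. Its kept probe set, 1419091_a_at, had log2 ratios of 1.69, 0.53 and 2.33 at day 7, against -3.06, -1.55 and -2.80 on the naive arrays, with no overlap. The difference was 3.99 ± 0.67, or 4.58 within the low spike-in arrays. The other 2 Anxa2 probe sets stayed between -0.54 and 0.28 on all 8 arrays, with day 7 minus naive differences of -0.35 and -0.03, and were not tested. By 1437691_at, all day 7 arrays lay below all naive arrays. As a mean over its 3 probe sets, Anxa2 had a difference of 1.20, so both its size and its sign depend on the probe set.

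The calls at day 7 were not equally firm. Lgals3 was called with each array left out in turn except naive replicate 2, without which 0 member probe sets were called. Without naive replicate 1, 5 member probe sets were called, among them Anxa6 (1415818_at, lower) and both of Lgals1. The calls over all 13042 kept probe sets swung too, from 17 without naive replicate 2 to 1727 without naive replicate 1, against 152 with all arrays. Calls gained or lost by a member are thus not particular to it. The call of Anxa2 held without naive replicate 1 and was lost without any 1 of the other 7 arrays. The call of Lgals1 (1455439_a_at) held without naive replicate 1 or either day 28 array and was lost without any 1 of the other 5. When the spike-in set entered the fit as a term, 0 member probe sets were called, and 14 over all kept probe sets. The log2 differences were then 4.24 for Lgals3, 4.03 and 3.47 for Lgals1 and 4.58 for Anxa2. These are the differences within the low spike-in arrays given above and no second check, since they rest on naive replicate 1 as the only naive array.

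**Figure D2:**
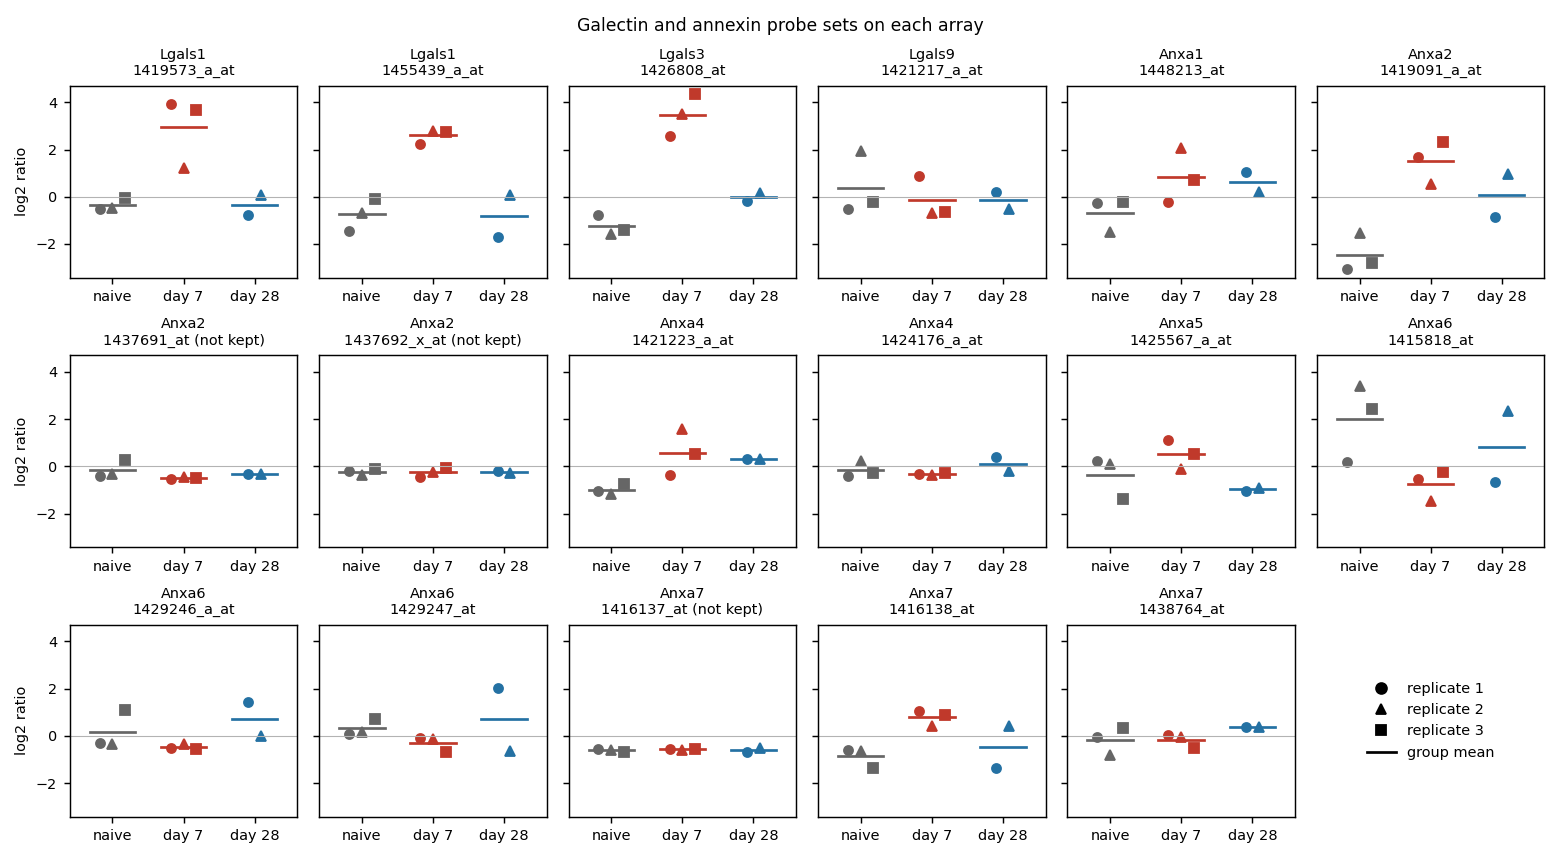
Log2 ratio (vertical axis) on each array for the 17 member probe sets, by group (horizontal axis); symbols mark the replicate number and lines the group mean. Lgals1, Lgals3 and Anxa2 (1419091_a_at) have day 7 points above all naive points, while the 3 probe sets that were not kept stay between -0.67 and 0.28.

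The other annexins gave smaller differences at day 7, none of them called. Anxa7, a calcium-binding membrane fusion protein also called synexin, had log2 ratios of 1.05, 0.43 and 0.87 at day 7, against -0.58, -0.63 and -1.35 on the naive arrays, by probe set 1416138_at (difference 1.64 ± 0.49). The groups did not overlap there. A second kept probe set, 1438764_at, had a difference of -0.00 ± 0.36 with overlapping groups, and the third was flat. The mean over the 3 probe sets of Anxa7 was 0.56.

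Anxa4 encodes an annexin best known from secretory epithelia. Its probe set 1421223_a_at had -0.38, 1.58 and 0.51 at day 7, against -1.05, -1.19 and -0.74 on the naive arrays (difference 1.56 ± 0.48). The groups did not overlap, though day 7 replicate 1 lay only a little above naive replicate 3. Its other probe set, 1424176_a_at, had a difference of -0.17 ± 0.30.

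Anxa1 encodes annexin A1, a glucocorticoid-inducible protein that acts on formyl peptide receptors. It had -0.24, 2.06 and 0.73 at day 7, against -0.27, -1.50 and -0.23 on the naive arrays (difference 1.52 ± 0.64). Day 7 replicate 1 lay at the level of naive replicates 1 and 3, so the groups overlapped. Replicates 2 and 3, the day 7 arrays with the higher Anxa1 and Anxa4, also had the higher median of the neutrophil marker list. The match was partial, since Anxa1 and Anxa4 were highest on replicate 2 and the neutrophil median on replicate 3. The marker Camp had -0.65, -0.63 and 1.12 at day 7, with replicate 2 near replicate 1. That list had 3 of 7 markers measured (Camp, S100a8 and S100a9), with medians of -0.51, 1.11 and 2.78 on the day 7 arrays and between -0.26 and 0.09 on the naive arrays. The part of such cells in these values was not tested.

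Anxa5, whose product binds phosphatidylserine exposed on dying cells, had 1.12, -0.12 and 0.52 at day 7, against 0.21, 0.11 and -1.37 on the naive arrays (difference 0.86 ± 0.51), with overlapping groups. Against naive replicate 1 alone, the difference was 0.30. Anxa6 is the largest annexin and one linked to cholesterol and membrane domains. Among kept probe sets, it was the only member whose day 7 arrays all lay below all naive arrays, by each of its 3. Its probe set 1415818_at had -0.54, -1.46 and -0.22 at day 7, against 0.19, 3.42 and 2.45 on the naive arrays (difference -2.76 ± 0.99). Most of the difference came from naive replicates 2 and 3, while naive replicate 1 lay close to day 7 replicate 3. Within the low spike-in arrays the difference was -0.94, under 1 SE of the fit. The other 2 Anxa6 probe sets had differences of -0.62 ± 0.51 and -0.62 ± 0.64.

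Lgals9 did not separate the stages. Its log2 ratios were -0.53, 1.93 and -0.22 in naive samples, 0.89, -0.67 and -0.64 at day 7, and 0.22 and -0.53 by day 28. Naive replicate 2 and day 7 replicate 1 stood high and the others lay between -0.67 and 0.22. Day 7 minus naive was -0.53 ± 0.72 and day 28 minus naive -0.55 ± 0.81. Without naive replicate 2 they were 0.23 and 0.22, so both signs rest on that array. Day 7 minus naive was 0.38 within the low spike-in arrays, and day 28 minus naive was -1.01 within the high ones.

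In total, 6 member probe sets of 5 genes had all day 7 arrays above all naive arrays, where 13.4% of kept probe sets did so. The 3 Anxa6 probe sets had all day 7 arrays below, where 8.61% of kept probe sets did so. Within the low spike-in arrays, 12 of the 14 differences kept the sign of the full comparison, and the median of the 14 was 0.75. Both comparisons share the 3 day 7 arrays and naive replicate 1, so agreement in sign is largely built in. The share over all kept probe sets was not computed, and nothing is read from this count.

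At day 28, no member probe set was called against naive, where 0.322% of all kept probe sets were called by limma, 0.268% higher and 0.0537% lower. At an unadjusted p under 0.05 it was 3 of 14, against 6.34% of all kept probe sets. The median log2 difference, day 28 minus naive, was 0.38 over the member probe sets and -0.05 over all kept probe sets. Day 28 minus naive rests on 2 arrays, and in both the B cell marker median was at least 3.46. Of the probe sets of B cell markers, 7 were called higher. The part of B cells in the member values was not tested.

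The 2 galectins that rose at day 7 differed in their day 28 values. Lgals1 had -1.71 and 0.09 by 1455439_a_at, one value below and the other above the naive values of -1.43 to -0.10, with a mean difference of -0.07 ± 0.60. By 1419573_a_at it had -0.77 and 0.07, again on either side of the naive values, a difference of 0.01 ± 0.78. Lgals3 had -0.18 and 0.16, both above the naive values of -1.56 to -0.78, a difference of 1.24 ± 0.53. Whether the 2 genes differ from each other was not tested.

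Anxa2 had log2 ratios of -0.85 and 0.97 at day 28, both above the naive values of -3.06 to -1.55, a difference of 2.53 ± 0.75, or 2.23 within the high spike-in arrays. Anxa4 (1421223_a_at) had 0.32 and 0.30, against -1.19 to -0.74 on the naive arrays, a difference of 1.30 ± 0.54. Anxa1 had 1.06 and 0.20, against -1.50 to -0.23, a difference of 1.30 ± 0.71. In these 3 genes and Lgals3, both day 28 arrays lay above all naive arrays. The same held for Anxa7 (1438764_at), with 0.40 and 0.36 against -0.81 to 0.33, a difference of 0.55 ± 0.40. These 5 probe sets without overlap compare with 7.76% of all kept probe sets, and 0 lay below without overlap, against 9.88%.

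The remaining members overlapped between day 28 and naive arrays, and several rested on which of the 2 day 28 arrays was taken. Anxa6 (1415818_at) had -0.66 and 2.33 at day 28, and its difference against naive was -2.68 with replicate 1 alone and 0.31 with replicate 2 alone. Another Anxa6 probe set, 1429247_at, had 2.03 and -0.64, so the 2 probe sets ranked the day 28 arrays in opposite order. Anxa7 (1416138_at) had -1.34 and 0.41. Anxa5 had -1.04 and -0.90, below naive replicates 1 and 2 but above naive replicate 3 at -1.37 (difference -0.62 ± 0.57).

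**Figure D3:**
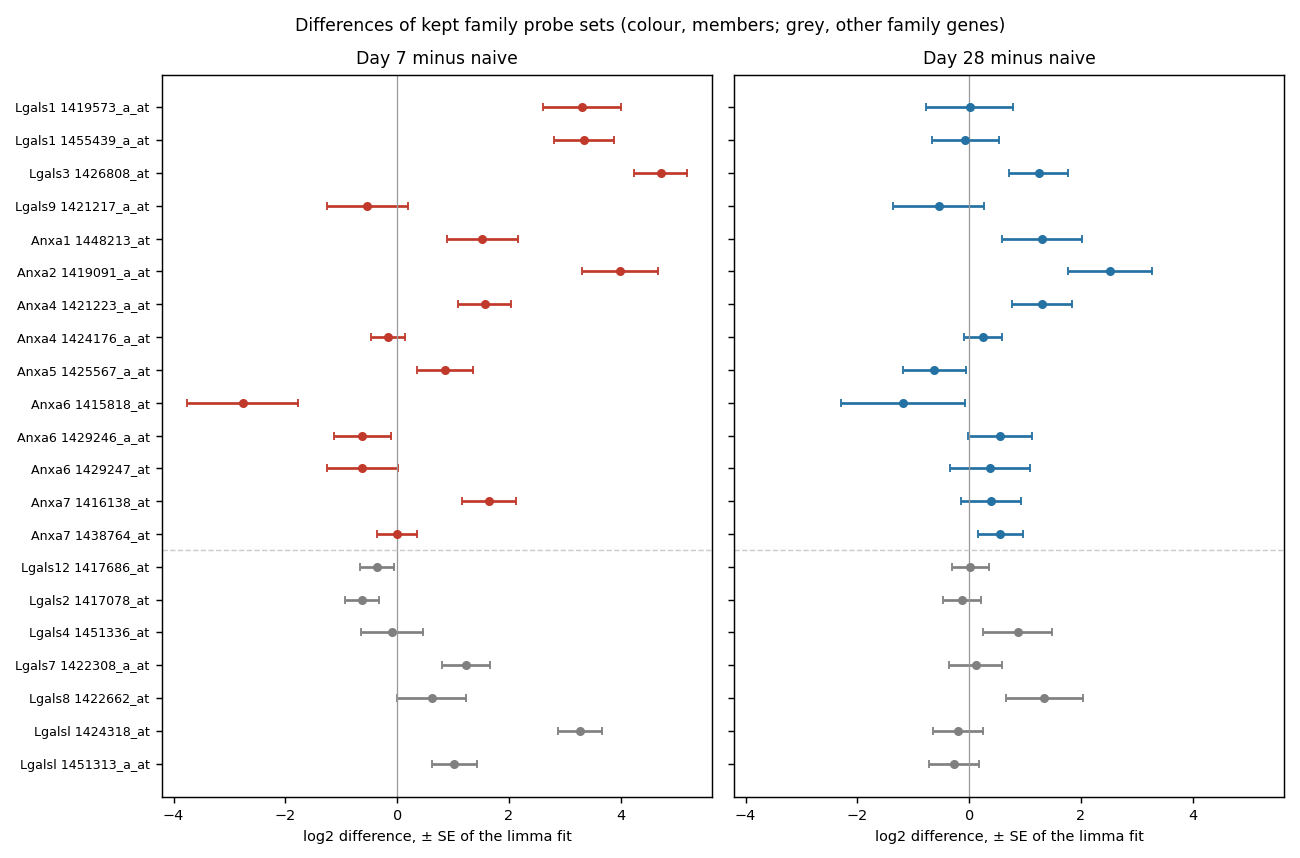
Log2 differences with the SE of the limma fit (horizontal axis) for the 14 kept member probe sets (colour) and 7 of the 8 kept probe sets of other family genes (grey, without Lgals3bp, which is no galectin), for day 7 minus naive (left) and day 28 minus naive (right). Lgals3, Anxa2 and both Lgals1 probe sets lie above 3 at day 7, as does Lgalsl (1424318_at), and at day 28 only Anxa2 lies above 2.

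Between day 28 and day 7, Lgals1 and Lgals3 fell and no member rose. Of the 14 member probe sets, 2 were called lower, where 0.882% of all kept probe sets were called lower, 0.422% higher and 1.3% in all. Lgals3 had -0.18 and 0.16 at day 28, against 2.56 to 4.34 at day 7, a difference of -3.47 ± 0.53. Lgals1 had a difference of -3.41 ± 0.60 by 1455439_a_at, which was called, and -3.30 ± 0.78 by 1419573_a_at, which was not. The Lgals3 call was lost without any 1 of 6 arrays and held only without naive replicate 1 or day 7 replicate 1. The Lgals1 call was also lost without any 1 of 6 arrays and held only without naive replicate 1 or day 28 replicate 2. Both were lost with the spike-in set as a term, at -2.76 for Lgals3 and -4.46 for Lgals1. Without overlap, 5 member probe sets lay lower at day 28 (29.7% of all kept probe sets) and 3 higher (15.2%).

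Anxa2 had a smaller difference here, -1.46 ± 0.75, with overlapping groups, since day 28 replicate 2 (0.97) lay above day 7 replicate 2 (0.53). Anxa1 and Anxa4 (1421223_a_at) had differences of -0.22 ± 0.71 and -0.26 ± 0.54, their day 28 values lying inside the day 7 range. Anxa5 had -1.48 ± 0.57 and Anxa7 (1416138_at) -1.25 ± 0.54, both with all day 28 arrays below all day 7 arrays. The day 28 and day 7 arrays differ in spike-in set throughout, so stage and spike-in set cannot be told apart in this comparison. It also shares its arrays with the other comparisons and is no independent evidence.

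By group mean, the order of stages was day 7, day 28, naive for Lgals3 and Anxa2 and for Anxa1 and Anxa4 (1421223_a_at), though day 28 overlapped day 7 in all but Lgals3. Anxa7 (1416138_at) had the same order, with day 28 overlapping naive. For Lgals1, day 7 came first, and the naive and day 28 arrays did not differ beyond their spread. For Anxa5 the order was day 7, naive, day 28, and only day 28 and day 7 did not overlap. For Anxa6 (1415818_at) it was naive, day 28, day 7, with day 28 overlapping both.

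The members also differed in how they ran together over the 8 arrays. These correlations describe arrays that share groups, spike-in sets and scaling. Over the 91 pairs of kept member probe sets, the median of Pearson's r was -0.07, with 10 pairs at 0.8 or above and 5 at -0.7 or below. The 2 Lgals1 probe sets, Lgals3, Anxa2 and Anxa7 (1416138_at) formed a block, picked after its values were seen, with r from 0.77 to 0.90. Anxa1 and Anxa4 (1421223_a_at) were the closest pair, at 0.93, and ran with Lgals3 at 0.64 and 0.73. Anxa6 (1429246_a_at) ran against Anxa5 at -0.84 and against Anxa7 (1416138_at) at -0.80. Probe sets of 1 gene did not always run together. The 2 Lgals1 probe sets had 0.86, whereas the 2 kept Anxa4 probe sets had -0.12 and those of Anxa7 -0.26.

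**Figure D4:**
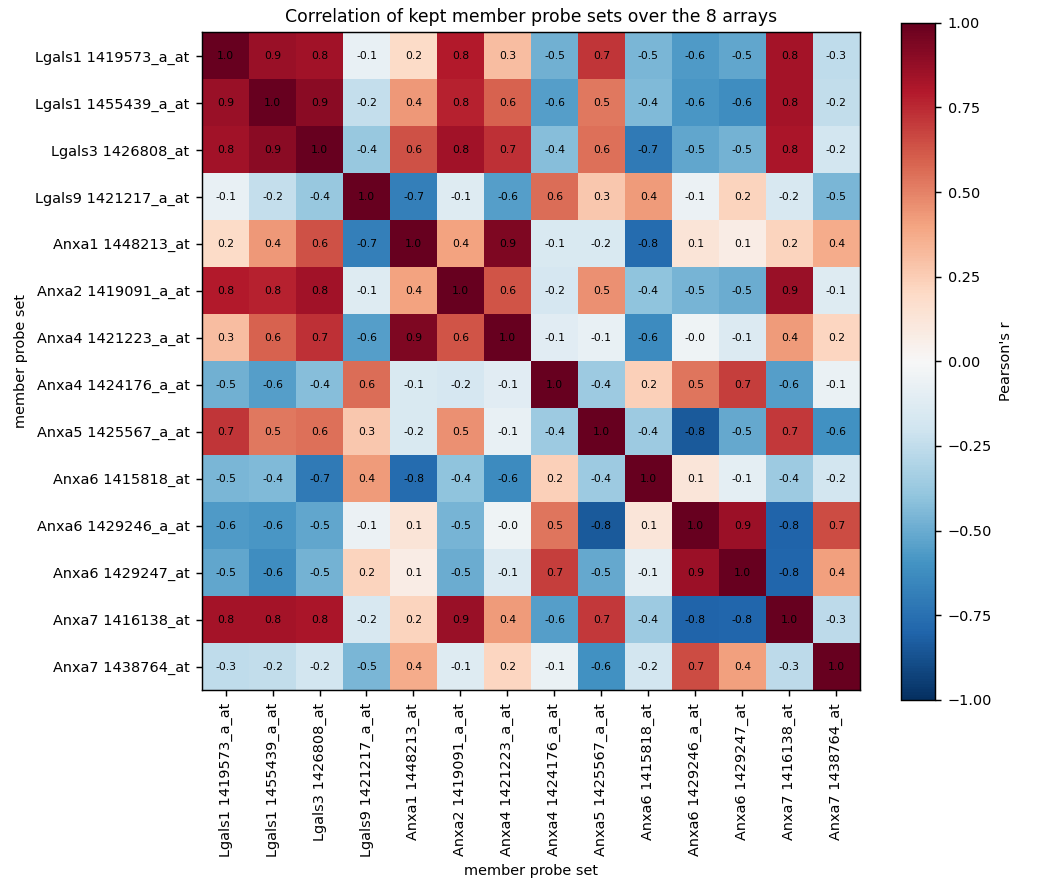
Pearson's r over the 8 arrays for each pair of the 14 kept member probe sets (both axes), with colour and numbers giving r. Lgals1, Lgals3, Anxa2 and Anxa7 (1416138_at) form a block of 0.77 to 0.90, and Anxa6 (1429246_a_at) has negative r with each of its 5 probe sets.

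Outside the 2 families, the genes most like each member over the 8 arrays were sought among 11538 kept probe sets with 1 symbol. Lgals3 was most like the cyclin Ccna2 (r = 0.99), the replication fork factor Tipin (0.98) and the cohesin regulator Cdca5 (0.98). Ccna2, Tipin and Cdca5 had day 7 minus naive differences of 4.06, 1.96 and 4.20, against 4.72 for Lgals3. Genes alike by correlation can thus differ in the size of the change. Lgals1 (1419573_a_at) was most like Frmd4b (0.99), the transcription factor Ascl2 (0.98) and Cdk5r1 (0.98). Their day 7 minus naive differences were 0.66, 3.63 and 1.15, against 3.31 for Lgals1. Anxa2 was most like the origin recognition subunit Orc6 (0.97), the costimulatory receptor Tnfrsf4 (0.96) and the lysosomal enzyme Ppt1 (0.95). Day 7 minus naive was 1.51, 3.15 and 1.73 for these genes, against 3.99 for Anxa2. Anxa4 was most like Csf1r, the receptor of macrophage colony stimulating factor (0.94), Zfp296 (0.92) and Klrg1, a lectin-like receptor of effector T and NK cells (0.92). Csf1r is also one of the 13 monocyte and macrophage markers. The probe set picked here for its correlation had a day 7 minus naive difference of 2.43, while the mean over the kept Csf1r probe sets was -0.59, 1.13 and 0.64 at day 7, against -0.37, -0.35 and -1.08 on the naive arrays. The part of such cells in the Anxa4 values was not tested.

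For the other members, the genes most alike were Zfp296 (0.95), Ifnz (0.94) and Adam9 (0.93) for Anxa1, and Sod2, Mrpl55 and Crem (each 0.98) for Anxa5. They were Xab2 (0.98), Gpr83 (0.97) and Rbm38 (0.97) for Anxa6 and Ppa2 (0.99), Znrf2 (0.98) and Tspan5 (0.98) for Anxa7. For Lgals9 they were Sapcd1 (0.98), Polr1a (0.98) and Eps15l1 (0.97). Picking the highest of so many values over 8 arrays gives high correlations for any gene.

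Other genes with galectin or annexin symbols were read on 18 probe sets of 12 genes, of which 8 probe sets of 7 genes were kept. The galectin-like gene Lgalsl was the only one called. Its probe set 1424318_at had 3.54, 2.11 and 2.88 at day 7, against -0.49, -0.41 and -0.36 on the naive arrays, a difference of 3.26 ± 0.39. It passed the filter only through the 3 day 7 arrays, since its ratios lay between 0.55 and 0.777 on the other arrays. Its calls are thus a description and not a test. Whether its low values lie at the floor of dim probe sets, which would narrow their spread, was not tested. At day 28 it had -0.86 and -0.38, a difference of -3.46 ± 0.44 against day 7, also called, and of -0.20 ± 0.44 against naive. Day 7 and naive arrays did not overlap, and the day 28 arrays lay inside the naive range (replicate 2) or below it (replicate 1). A second Lgalsl probe set, 1451313_a_at, had a day 7 minus naive difference of 1.02 ± 0.41 with overlapping groups.

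The kept probe sets of the galectins Lgals2, Lgals4, Lgals7, Lgals8 and Lgals12 and of Lgals3bp, a secreted glycoprotein that binds galectin-3, had differences from -1.27 (Lgals3bp) to 1.23 (Lgals7) at day 7. Lgals7 had 1.34, -0.23 and 1.12 at day 7, against -0.49 to -0.46 on the naive arrays, and passed the filter only through day 7 replicates 1 and 3. Lgals8 had a difference of 0.62 ± 0.61 at day 7 and 1.34 ± 0.69 at day 28. The annexins Anxa3, Anxa8, Anxa9, Anxa10 and Anxa13 had no kept probe set, their ratios staying below 1 on all 8 arrays except for Anxa3 on day 7 replicate 1.

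Partners of the members were described by 3 lists, chosen with earlier results of these data known. Over all kept probe sets, 1.06% were called higher at day 7 and 0.107% lower, with a median difference of 0.11. Of the annexin partners and receptors, 9 of 14 genes were measured by 13 probe sets, of which 2 were called higher at day 7, 0 lower and 11 neither, with a median difference of 0.88. Those called were the calcium-binding proteins S100a4 (4.83 ± 0.30) and S100a6 (4.36 ± 0.36). S100a4 was also called higher at day 28 against naive, at 2.61 ± 0.34, and both were called lower at day 28 against day 7. S100a10, the direct partner of annexin A2 and named here after its values were seen, had 1.20, 1.05 and 1.19 at day 7, against -0.31, -0.55 and -0.38 on the naive arrays, by 1456642_x_at (difference 1.56 ± 0.30). Its groups did not overlap, but it was not called, and its other probe set had a difference of 2.74 ± 0.90.

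Of the galectin ligands and receptors, 10 of 15 genes were measured by 19 probe sets, with a median day 7 difference of 0.02. At day 7, 1 was called higher, 0 lower and 18 neither, where 1.06% of all kept probe sets were called higher. The one called was Cd44 (1423760_at), the hyaluronan receptor, at 4.45 ± 0.60, while its other probe set had 0.68 ± 0.34. That other probe set passed the filter only through day 7 replicates 1 and 2. Itgb1, the beta-1 integrin chain, had 3.08 ± 0.63 by 1426918_at and from -0.28 to 1.72 by its other 4 kept probe sets. Of the enzymes that branch and cap the glycans galectins bind, 12 of 15 genes were measured by 14 probe sets, and 0 were called by limma in any of the 3 comparisons, with a day 7 median of -0.03. At an unadjusted p under 0.05 and at day 7, it was 1 of these 14 probe sets, 6 of 19 of the galectin ligands and 6 of 13 of the annexin partners, against 15.5% of all kept probe sets. The largest differences at day 7 were those of the mannosidase Man2a1 (2.39 ± 1.13) and the galactosyltransferase B4galt1 (-1.26 ± 1.27), both with overlapping groups.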

How the data were processed

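The deposited table holds 22690 probe sets on 8 arrays with 0 missing values. Per the labels, the authors made biotin-labelled cRNA from total RNA of sorted cells. GCRMA, without a version, is named in the submitters' processing notes. The deposited values are linear ratios. No source describes their scaling, which was inferred: across the 8 arrays the median is 1, within 0.0015, for 47.9% of probe sets.

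The log2 ratios were fitted with limma 3.58.1 in R 4.3.3, with 1 mean per group over all 8 arrays, empirical Bayes moderation and p-values adjusted by Benjamini-Hochberg across all 13042 kept probe sets. The number of arrays limits the precision. Members, partner lists, marker lists and alternatives were chosen with earlier results of these data known. Named were all members, all other genes with Lgals or Anxa symbols, the partner genes called in any comparison (or, where under 2 were called, the 2 with the largest absolute day 7 difference), and the 3 genes most correlated with each member's most variable probe set. Unnamed genes and receptor segments were left out of the last.

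Marker lists covered T cells, B cells, monocytes and macrophages, neutrophils, dendritic cells, NK cells, erythroid cells and platelets, and stroma and endothelium. Alternatives changed the filter, the scaling, the variance model and the arrays in the fit. Promoters came from a RefSeq table of build GRCm38.p6.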

Additional observations from a re-analysis of the deposited data

How the results depend on the processing

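Of 690 alternative values of these differences, 38 moved by more than 1 SD (24 with an array left out, 8 with the spike-in term, 6 as a mean over a gene's probe sets) and 0 called values turned round. Many of the 690 could not move, so this share is no measure of firmness. A changed filter or variance model, and a fit of only the 2 groups compared, leave a difference as it was. Leaving out an array of the group not compared does so too, as does the replicate block for day 7 minus naive. Only called values could count as turned round. With each array left out, 27 of the 42 differences kept their sign throughout (11 of 14 for day 7 minus naive, 6 of 14 for day 28 minus naive, 10 of 14 for day 28 minus day 7). For day 7 minus naive, 152 probe sets and 3 member probe sets were called, against 94 and 1 with no filter, 54 and 1 with trended and robust variance, 16 and 0 with the replicate block and 14 and 0 with the spike-in term. The stricter filter gave 76 probe sets and a fit of only the 2 groups compared 68, with 2 member probe sets each. For day 28 minus naive, 42 probe sets were called, against 26 with the stricter filter, 19 with trended and robust variance, 9 with the replicate block and 0 with only the 2 groups compared, and no member was called under any alternative. For day 28 minus day 7, 170 probe sets and 2 member probe sets were called, against 62 and 1 with the stricter filter, 52 and 0 with trended and robust variance, 15 and 0 with the replicate block and 0 and 0 with the spike-in term. Only the 2 groups compared gave 591 probe sets there, no filter gave 0 member probe sets, and quantile normalization and median centring gave 1 each. Leaving out 1 array gave 17 (without naive replicate 2) to 1727 (without naive replicate 1) probe sets and 0 to 5 member probe sets for day 7 minus naive. It gave 2 (without day 28 replicate 1) to 57 for day 28 minus naive, and 25 (without day 7 replicate 3) to 810 (without naive replicate 1) with 0 to 2 member probe sets for day 28 minus day 7. The cause of these changes was not tested. The labels do not say whether same-numbered arrays belong together. Deviations from the group means of same-numbered day 7 and naive arrays correlated at -0.23, -0.36 and 0.10, and those of differently numbered ones from -0.19 to 0.35. Same-numbered day 28 and naive arrays gave 0.12 and 0.12, and day 28 and day 7 arrays 0.17 and 0.09. These values cannot decide on pairing, since deviations within a group sum to 0 and those of the 2 day 28 arrays mirror each other. With pairing unknown, a call lost under the block is not read as a weaker effect or as any other. The number of arrays and the unknown signal over background limit what can be called.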

Other observations

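Marker lists not described above gave the following list medians, as log2 ratios. Monocyte and macrophage markers (7 of 13 measured) ran from -0.61 to -0.16 among naive arrays, from -0.08 to 0.11 at day 7 and from 0.13 to 0.63 at day 28. No probe set of this list was called by limma at day 28 against naive, where 0.322% of all kept probe sets were. Its markers did not run alike. The lysozyme gene Lyz2 had 5.43 and 2.19 on the day 28 arrays, against -0.61 to -0.16 on the naive arrays. Ccr2, Csf1r and Mpeg1 also had both day 28 arrays above all naive arrays, by smaller amounts. Adgre1 and Ctss overlapped with naive, and C1qb lay slightly below it, with -0.05 and -0.04 against -0.03 to 0.42. Neutrophil markers were 0.49 and -0.43 at day 28. Dendritic and NK cell markers had 1 measured gene each, Flt3 (-0.36 to 0.23 over the 8 arrays) and Klra8 (-0.62 to 0.97). Of the erythroid and platelet markers 2 of 6 were measured. Their median ran from -0.76 to 1.91 among naive arrays, from -0.62 to 0.62 at day 7 and from 0.36 to 0.74 at day 28. The 2 genes did not run together. Alas2, an enzyme of haem synthesis in red cells, stood at 4.24 on naive replicate 3, where the platelet gene Pf4 had -0.42. Pf4 had 1.68 on day 7 replicate 3 and 1.54 on day 28 replicate 1, where Alas2 had -0.43 and -0.05. No stroma or endothelium marker was kept. The part of these cells in the galectin and annexin values was not tested.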
